A study of Mus musculus with 20 samples.

Results

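The maturation of wild-type mouse liver between 4 and 8 weeks of age was described by comparing the 5 arrays titled as wild type at 8 weeks with the 5 titled as wild type at 4 weeks. These 10 arrays were chosen by their titles from the 20 arrays of the series. The study hybridised liver RNA of mice with or without the O-GlcNAc transferase gene Ogt in the liver to Clariom S Mouse arrays, 5 mice per genotype and age. The wild-type mice carry the label OGTL WT, and the other mice OGTL KO. Genotype and age are the only labels that set the groups apart. The labels used here give no strain, sex, diet, time of day at collection or Cre driver. Apart from sex, these could not be compared between the ages. Uty and Eif2s3y, genes of the Y chromosome, had log2 signals of 9.24 to 9.73 and 11.17 to 12.09 at 4 weeks and 9.04 to 10.10 and 11.40 to 11.86 at 8 weeks. These values lay above the background level given below, so each of the 10 wild-type arrays held RNA of a male.

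The window from 4 to 8 weeks runs from soon after weaning to sexual maturity in the mouse. In rodents the liver becomes sexually dimorphic at puberty, when the pituitary of males begins to release growth hormone in separated pulses and that of females releases it almost continuously, and the transcription factor STAT5B carries the pattern into the hepatocyte nucleus. Over the same weeks hepatocytes slow their division, and some genes of the fetal programme finish closing. Cytochrome P450 enzymes, sulfotransferases, major urinary proteins and organic anion transporters hold many of the classic sex-biased liver genes.

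Values are log2 signals as deposited, given as mean ± SD with n = 5 arrays per age, and a difference is the 8-week mean minus the 4-week mean in log2 units. Calls rest on a limma adjusted p below 0.05 over all 19505 genes tested, which 1744 genes (8.94%) reached. At 8 weeks 723 genes (3.71%) were called higher and 1021 (5.23%) lower, and of these 214 (1.1%) and 508 (2.6%) differed by at least 1 log2 unit, which is 2-fold. The median difference over all genes was 0.04. The values of the 2 ages did not overlap for 1772 genes (9.08%). Among the genes called, 82 higher and 31 lower were not above background at either age. Background here is the 95th percentile of the group means of 1412 olfactory and vomeronasal receptor genes, 5.01 at 4 weeks and 5.20 at 8 weeks. A difference against a group not above this level is given as "at least". Receptor genes themselves had a median difference of 0.10, with 16 called higher and 1 lower.

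Single arrays stood apart at both ages. Replicate 4 at 4 weeks held skeletal muscle transcripts, with the mean of 30 muscle markers at 12.32 against a median of 5.05 over the 4-week arrays and 4.72 to 4.99 at 8 weeks. Acta1, the skeletal muscle actin gene, was 4.88, 4.76, 6.11, 15.89 and 4.72 in 4-week replicates 1 to 5. Muc2, the gene of the intestinal mucin, was 12.63 in that array and 10.23 in replicate 3, and 4.33, 4.86 and 4.32 in the others, so this gut transcript was high in 2 of the 4-week arrays. Without replicate 4 the counts were 472 genes (2.42%) higher and 821 (4.21%) lower. Of the genes called with all arrays, 457 higher and 796 lower were also called without it, and of the 266 higher genes lost 42 were not above background at either age. Replicate 1 at 8 weeks differed from its group in clock genes: Dbp, a clock output gene, was 15.19, 7.46, 7.89, 8.35 and 8.21, and the clock gene Arntl was 6.11, 10.99, 9.89, 10.88 and 10.74. The metallothionein gene Mt2 was 17.65, 7.33, 8.45, 9.49 and 8.78 in the same arrays. Only replicate 1 was high in Dbp and Mt2 and low in Arntl, and without it 689 genes (3.53%) were higher and 921 (4.72%) lower.

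**Figure D1:**
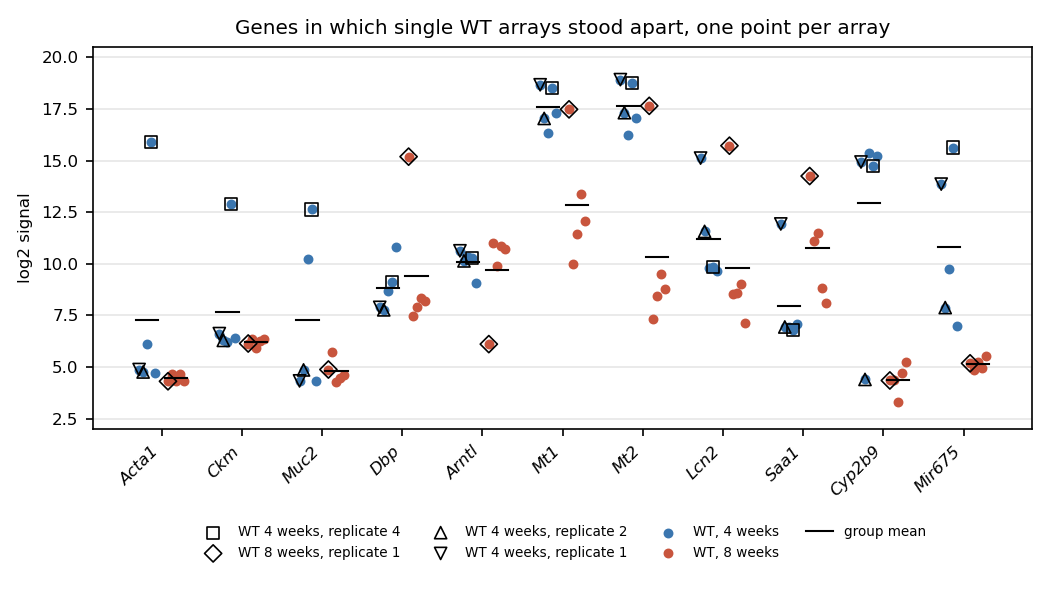
Log2 signal of 11 genes in each wild-type array at 4 weeks (blue) and 8 weeks (red), with black lines for the group means. Open symbols mark 4 arrays. Acta1 reached 15.89 in 4-week replicate 4 (squares), Dbp reached 15.19 in 8-week replicate 1 (diamonds), and Cyp2b9 was 4.40 in 4-week replicate 2 (upward triangles).

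Genes known as male-biased in liver rose. Of 26 measured members of that list 22 were called higher, where 3.71% of all genes were called higher, and the other 4 were not called. The median difference was 2.98 against 0.04 for all genes, the highest of the 40 gene lists described here. Without 4-week replicate 4 the count was 21 and the median 2.63. The fatty acid elongase gene Elovl3 was 3.46, 5.78, 5.92, 3.93 and 8.26 in 4-week replicates 1 to 5 and 15.00, 17.53, 17.50, 17.12 and 16.71 at 8 weeks. It rose by 11.30 (SE 0.79, limma adjusted p = 2.93e-09), from 5.47 ± 1.90 to 16.77 ± 1.05. Every 8-week array lay above every 4-week array, and within the 4-week group replicate 5 was highest and replicate 1 lowest. Elovl3 is also an adipocyte marker, and of the other 12 adipocyte markers Fabp4 was lower and none was higher.

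Cyp4a12a, a fatty acid hydroxylase gene that depends on androgen, was 4.23, 6.90, 5.07, 5.27 and 9.35 at 4 weeks and 17.36, 17.39, 17.43, 17.91 and 16.36 at 8 weeks, a rise of 11.13 (adjusted p = 2.69e-06). Its neighbour in sequence Cyp4a12b rose by 8.75. Features of such near-identical paralogs cannot be assigned to 1 gene with certainty, which holds for the Mup, Cyp2d, Sult2a, Gstp and Cyp4a12 genes throughout. The complement gene C6 rose from 9.22 ± 0.52 to 17.14 ± 0.47 (difference 7.92, adjusted p = 2.09e-10). Cyp7b1, which hydroxylates oxysterols and steroids, was 9.51, 9.81, 9.84, 8.13 and 9.44 at 4 weeks and 17.58, 17.04, 17.10, 15.97 and 16.50 at 8 weeks, a rise of 7.49 (adjusted p = 1.68e-11). The ages did not overlap for any of these genes, and 4-week replicate 4 was the lowest array for Cyp7b1.

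Hsd3b5, a male-specific member of the hydroxysteroid dehydrogenase family, had a wide spread at 4 weeks, 6.45, 11.87, 10.30, 8.62 and 13.42, and a narrow one at 8 weeks, 16.02, 16.65, 16.32, 16.32 and 16.75. It rose by 6.28 (adjusted p = 0.000155). Mup20, the gene of the urinary pheromone protein darcin, rose from 14.01 ± 1.44 to 19.11 ± 0.13 (difference 5.10), and Mup6 by 4.74. The complement regulator gene Susd4 was 5.46 to 6.31 at 4 weeks and 10.17 to 11.35 at 8 weeks (difference 4.78, adjusted p = 1.17e-09). The selenium-binding protein gene Selenbp2 rose by 3.80, the glutathione transferase gene Gstp1 by 3.40 and Cyp2d9, a testosterone hydroxylase gene, by 2.55. The organic anion uptake transporter gene Slco1a1 was 9.02, 14.44, 13.08, 11.40 and 15.74 at 4 weeks and 16.73 to 16.91 at 8 weeks. Its rise of 4.06 was called (adjusted p = 0.0169), and the call was lost without 4-week replicate 4 (adjusted p = 0.0509) or replicate 1 (adjusted p = 0.0544). Bcl6, which encodes a male-biased repressor, was 6.0 to 10.32 at 4 weeks and 5.81 to 10.66 at 8 weeks, and it was not called (difference -0.02).

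Genes known as female-biased in liver fell. Of 37 measured members 33 were called lower and the other 4 were not called, where 5.23% of all genes were called lower. The median difference was -3.20, the lowest of the 40 lists, against 0.04 for all genes, and without 4-week replicate 4 again 33 were lower, with a median of -3.27. The steroid sulfotransferase gene Sult2a2 was 16.06, 14.93, 15.24, 15.71 and 13.15 in 4-week replicates 1 to 5 and 4.75, 4.67, 3.65, 4.59 and 5.16 at 8 weeks. It fell by 10.45 (adjusted p = 2.09e-10), and since the 8-week mean was not above background the fall was at least 9.82. Sult2a1 fell by 8.49, from 15.28 ± 1.59 to 6.79 ± 0.93, and Sult2a5, outside the list, by 6.44. For all 3 genes 4-week replicate 5 had the lowest value of its age, 13.15, 12.58 and 9.34, and still lay above every 8-week array.

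Hao2, which encodes a hydroxyacid oxidase, was 12.59, 12.62, 12.91, 13.34 and 11.90 at 4 weeks and 3.96, 3.86, 3.43, 4.13 and 4.04 at 8 weeks. Its fall was at least 7.47 (measured difference -8.79, adjusted p = 3.73e-13), with close replicates at both ages. The organic anion transporter genes Slc22a27 and Slc22a26 fell by 8.41 (at least 7.50) and 7.84, the latter from 14.14 ± 0.63 to 6.30 ± 0.29. A1bg, which encodes a plasma glycoprotein, was 10.67, 7.67, 9.41, 11.42 and 8.87 at 4 weeks and 2.62 to 3.73 at 8 weeks (at least 4.41 lower, adjusted p = 6.43e-08). The P450 genes Cyp2c40 and Cyp2c69 fell by 6.63 and 5.30 and stayed well above background at 8 weeks, at 10.25 ± 0.98 and 11.68 ± 0.54. The sulfotransferase gene Sult3a1 fell by at least 2.98, from 4-week values of 5.99, 10.47, 8.76, 7.72 and 7.94.

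The Cyp2b genes of the P450 family were set apart by 1 array. Cyp2b9 was 14.93, 4.40, 15.37, 14.75 and 15.20 in 4-week replicates 1 to 5 and 4.35, 4.37, 3.32, 4.71 and 5.22 at 8 weeks. Replicate 2 alone lay among the 8-week values, so the ages overlapped although the fall was called (difference -8.54, at least 7.73, adjusted p = 0.000672). The same array was lowest of its age for Cyp2b13 (5.09 against 9.07 to 11.04 in the others; difference -4.06, at least 3.59) and for Cyp2b10 (6.67 against 10.03 to 11.77; difference -2.86, adjusted p = 0.0143). The female-biased transcription factor gene Cux2 was 5.49 ± 0.74 at 4 weeks and 5.16 ± 0.18 at 8 weeks, with its 8-week mean not above background, and was not called (adjusted p = 0.563).

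**Figure D2:**
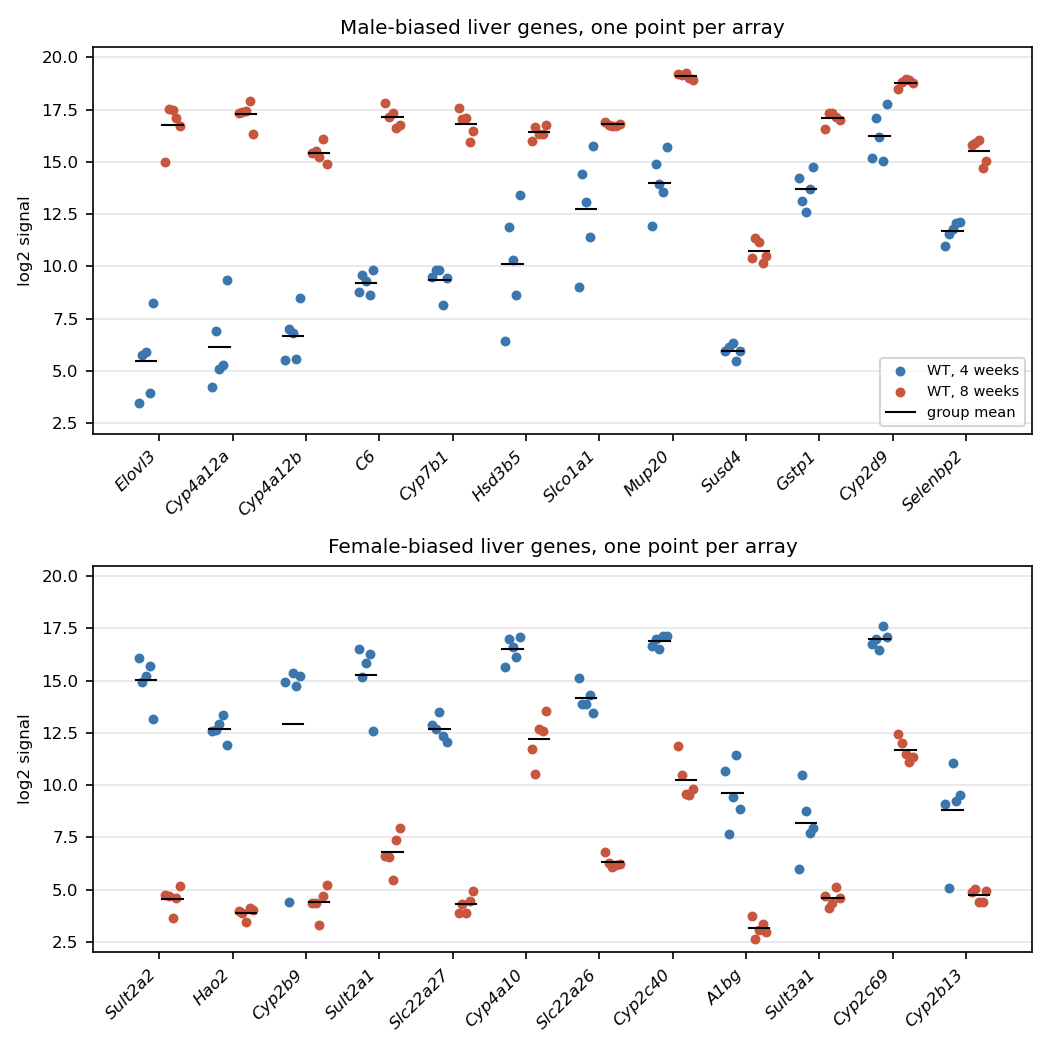
Log2 signal of 12 male-biased genes (top) and 12 female-biased genes (bottom) in each wild-type array at 4 weeks (blue) and 8 weeks (red), with black lines for the group means. The 4-week points of Elovl3 run from 3.46 to 8.26 and its 8-week points from 15.00 to 17.53, while Cyp2b9 has 1 4-week point at 4.40 among the 8-week points.

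The 4-week arrays differed among themselves in sex-biased genes more than the 8-week arrays did, and most in the male-biased ones. The median SD of the 22 called members was 0.98 at 4 weeks and 0.33 at 8 weeks, and for 18 of the 22 (81.8%) the 4-week SD was the larger. Several of these members, among them Mup20, Cyp2d9, Elovl3 and C6, had 8-week means above 16, where differences may be compressed, and the part of that in the narrower spread was not tested. Over all genes the median SD was 0.25 at each age, and the 4-week SD was larger for 47.8%. The mean log2 signal of the 22 members was 10, 11.76, 11.18, 10.38 and 12.43 in 4-week replicates 1 to 5, and 15.42 to 15.84 at 8 weeks. Replicate 5 was highest in 19 of the 22 genes, and replicate 1 was lowest in 13 and replicate 4 in 7. For the 33 called female-biased members the median SD was 0.60 at 4 weeks and 0.45 at 8 weeks. The 4-week SD was the larger for 24 of the 33 (72.7%). Several of the 33, among them Sult2a2, Hao2 and Slc22a27, had 8-week means not above background. The part of that in their 8-week spread was not tested. The array means of the 33 members were 11.57 to 12.37 at 4 weeks and 7.39 to 8.05 at 8 weeks, and replicate 5 was lowest in 16. These spreads are a description, since the members were those called in the same comparison.

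**Figure D3:**
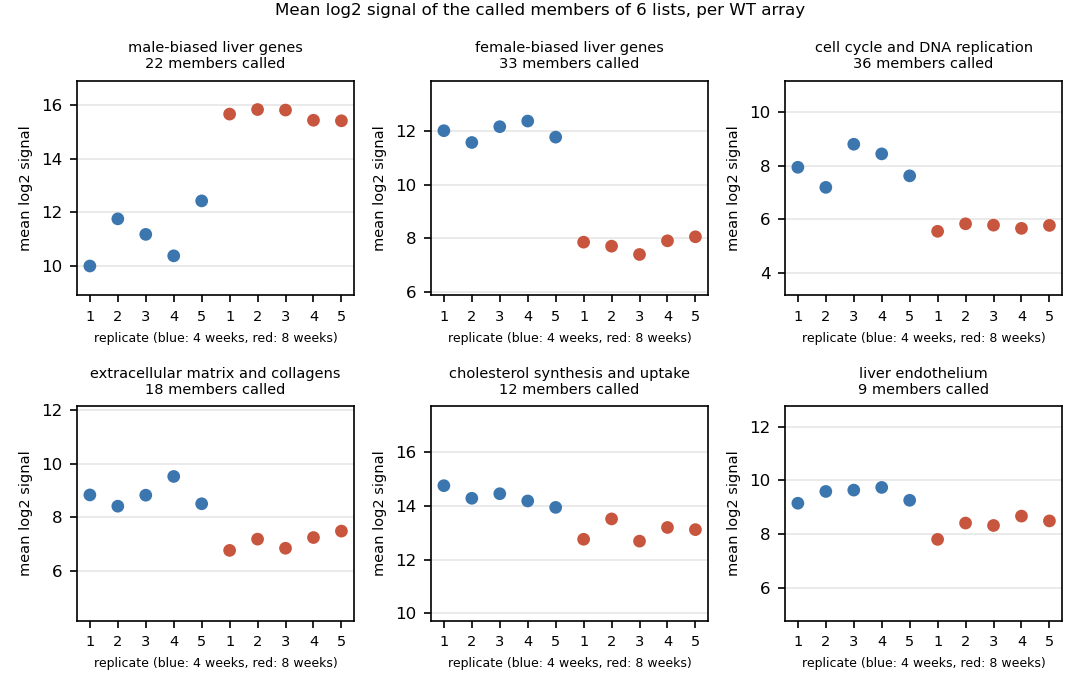
Mean log2 signal of the members called in 6 gene lists, for each wild-type array, with replicates 1 to 5 at 4 weeks in blue and 1 to 5 at 8 weeks in red. All panels span 8 log2 units. The male-biased means are spread from 10 to 12.43 at 4 weeks and lie between 15.42 and 15.84 at 8 weeks.

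Some members of a single enzyme or transporter family moved in opposite directions. The families were chosen after their values were seen, and over all genes 3.71% were called higher and 5.23% lower. In the Cyp4a family of fatty acid hydroxylases 2 of 8 genes were higher, Cyp4a12a and Cyp4a12b, and 4 were lower. Cyp4a14, a target of the fatty acid receptor PPARalpha, was 16.88, 17.50, 17.33, 16.90 and 17.44 at 4 weeks and 9.25, 7.06, 10.22, 9.34 and 9.64 at 8 weeks, a fall of 8.11 (adjusted p = 2.2e-09). Cyp4a10 fell by 4.27 and Cyp4a31 by 4.37. Among 24 organic ion transporters of the Slc22a family 2 were higher, Slc22a28 (2.42) and Slc22a30 (1.65), and 3 were lower, among them Slc22a26 and Slc22a27. The other 19 were not called, and the family median was 0.10. Among 22 glutathione transferases Gstp1 and Gstp2 (each 3.40) were higher, 7 were lower, including Gstp3 (-2.0), and 13 were not called.

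In other families the calls ran one way, beside the 3.71% of all genes called higher and 5.23% lower. Of 9 Mup genes 5 were higher, and the 9 differences had a median of 2.82 and a range of 1.41 to 5.10. Of 8 Sult2a genes 5 were lower (median -3.17). Of 9 Cyp2d genes 7 were higher, 5 without 4-week replicate 4, and of 10 UDP-glycosyltransferase genes 9 were higher, 7 without it. Of 9 Cyp3a genes 5 were lower, and of 8 genes of the Nat8 acetyltransferase family 5 were higher.

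Of 17 genes of the growth hormone and IGF axis 1 was higher and 2 lower, where 3.71% of all genes were higher and 5.23% lower, and the median was -0.22. The receptor gene Ghr was 16.05, 16.43, 16.53, 16.07 and 16.75 at 4 weeks and 16.44, 17.14, 17.08, 17.06 and 17.28 at 8 weeks. Its rise of 0.63 (adjusted p = 0.0142) was lost without 4-week replicate 4 (adjusted p = 0.0504), and the ages overlapped through 8-week replicate 1. Igf1, the growth factor gene that growth hormone induces in liver, was 18.42 ± 0.19 and 18.18 ± 0.14 (difference -0.24, adjusted p = 0.329), and Igfals, which encodes a partner of circulating IGF1, was 10.90 ± 0.67 and 11.32 ± 0.55 (adjusted p = 0.477). The feedback inhibitor gene Socs2 was 7.94, 13.69, 11.28, 12.12 and 10.75 at 4 weeks and 9.45, 7.38, 9.34, 7.57 and 9.78 at 8 weeks, and was not called (difference -2.45, adjusted p = 0.0567). Its lowest 4-week value was in replicate 1, without which it was called (difference -3.26, adjusted p = 0.00353). With all arrays Socs2 was also called by limma with array weights (adjusted p = 0.04081). The same held without the dimmest 25% of genes (adjusted p = 0.04637) or without genes not above background at either age (adjusted p = 0.04015). The binding protein genes Igfbp3, made in the sinusoidal cells, and Igfbp1, made in hepatocytes, fell by 2.87 (adjusted p = 5.11e-06) and 1.93 (adjusted p = 0.0165), and Igfbp1 lost its call without 4-week replicate 1 or 3 (adjusted p 0.0546 to 0.0569).

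Cell cycle genes fell. Of 41 measured genes of the cell cycle and DNA replication 36 were called lower, against 5.23% of all genes, and the other 5 were not called. The median difference was -1.82. Without 4-week replicate 4 the count was 34 and the median -1.78. Mki67, the gene of the proliferation marker Ki-67, was 10.25, 9.27, 11.70, 11.46 and 9.89 in 4-week replicates 1 to 5 and 5.19, 6.29, 5.89, 5.61 and 6.48 at 8 weeks. It fell by 4.62 (SE 0.46, adjusted p = 6.51e-07), and the lowest 4-week array, replicate 2, lay above every 8-week array. Ube2c, a ubiquitin ligase partner of mitotic exit, fell by at least 3.20, and Cdk1, the mitotic kinase, by at least 1.70, since both were not above background at 8 weeks. The replication helicase gene Mcm6 fell from 10.70 ± 0.75 to 6.66 ± 0.53 (difference -4.04) and the microtubule regulator gene Stmn1 by 3.63. Pcna, the replication clamp gene, was high at both ages, 14.30 ± 0.35 and 12.58 ± 0.09, and fell by 1.72, and the topoisomerase gene Top2a fell by 1.51.

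The 4-week arrays also differed in cell cycle genes. The mean of the 36 called members was 7.94, 7.19, 8.80, 8.44 and 7.62 in 4-week replicates 1 to 5 and 5.55 to 5.83 at 8 weeks. Replicate 2 was lowest in 30 of the 36 and replicate 3 highest in 24. Histone genes, mostly replication-dependent and a family chosen after its values were seen, had 30 of 54 members lower, 28 without 4-week replicate 4, and a median of -0.85. The family took in H1f10, which is not replication-dependent and was not called. H3c14 and H3c15 had the same difference (-2.22), and near-identical members may share signal. Of 8 genes named Mcm 5 were lower, and Mcm10, which shares the name but encodes another replication factor, was higher, 8.66, 10.28, 10.28, 9.24 and 10.13 at 4 weeks and 12.23, 12.07, 13.24, 12.04 and 11.95 at 8 weeks (difference 2.59, adjusted p = 4.82e-05). Of 15 tubulin genes 5 were lower. Beside these family counts, 5.23% of all genes were lower and 3.71% higher.

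Promoters of cell cycle genes often hold a cell cycle homology region (TTTGAA) and CCAAT boxes (CCAAT), through which the DREAM complex and NF-Y act. Promoters of 300 bases, 250 before and 50 after the RefSeq start site, were found for 28 of the 36 lower genes. On both strands and with overlaps counted, 16 (57.1%) held the first motif, 25 (89.3%) the second and 16 (57.1%) both. Among 15691 tested genes with a promoter in the table the shares were 15.8%, 38.8% and 6.5%. The first motif was also in 43.8% of the promoters of called male-biased genes and 37.5% of those of called female-biased genes, but both motifs together were in 6.2% and 4.2%. A match describes these letters and is no measure of binding. The promoters of Cdk1, Mki67 and Ube2c are shown because these genes fell and their promoters hold both motifs, from RefSeq on build GRCm38.p6 at chr10:69352863-69353162 (minus strand), chr7:135716330-135716629 (minus) and chr2:164769679-164769978 (plus), with both motifs in capitals in either orientation.
Cdk1: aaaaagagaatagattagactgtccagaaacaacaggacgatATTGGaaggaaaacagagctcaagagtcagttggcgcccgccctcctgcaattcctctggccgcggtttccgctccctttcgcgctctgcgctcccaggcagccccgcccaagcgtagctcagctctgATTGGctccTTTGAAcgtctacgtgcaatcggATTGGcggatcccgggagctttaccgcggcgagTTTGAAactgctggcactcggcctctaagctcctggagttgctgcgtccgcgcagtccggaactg
Mki67: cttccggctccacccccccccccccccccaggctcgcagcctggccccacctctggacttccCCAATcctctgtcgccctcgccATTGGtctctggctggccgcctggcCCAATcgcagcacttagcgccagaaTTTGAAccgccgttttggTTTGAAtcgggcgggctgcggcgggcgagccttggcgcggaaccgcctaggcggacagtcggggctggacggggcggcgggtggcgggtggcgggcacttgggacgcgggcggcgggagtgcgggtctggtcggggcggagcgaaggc
Ube2c: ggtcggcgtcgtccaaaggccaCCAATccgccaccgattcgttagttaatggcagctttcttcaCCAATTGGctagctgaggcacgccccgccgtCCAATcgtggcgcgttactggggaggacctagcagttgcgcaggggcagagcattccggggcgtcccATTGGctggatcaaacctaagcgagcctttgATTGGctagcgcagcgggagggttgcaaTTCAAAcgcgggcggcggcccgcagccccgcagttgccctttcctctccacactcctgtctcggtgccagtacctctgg

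STAT5 binds DNA at a palindrome of TTC, 3 bases of any kind and GAA. This motif was in 4 of 16 promoters (25.0%) found for called male-biased genes and 4 of 24 (16.7%) found for called female-biased genes, against 7.9% of those of tested genes. The counts are small, and the 300 bases leave out distal sites. Slc22a26, which fell by 7.84, has such an element, and its promoter is shown for that reason, from chr19:7802618-7802917 (minus strand, GRCm38.p6, RefSeq) with the element in capitals.
Slc22a26: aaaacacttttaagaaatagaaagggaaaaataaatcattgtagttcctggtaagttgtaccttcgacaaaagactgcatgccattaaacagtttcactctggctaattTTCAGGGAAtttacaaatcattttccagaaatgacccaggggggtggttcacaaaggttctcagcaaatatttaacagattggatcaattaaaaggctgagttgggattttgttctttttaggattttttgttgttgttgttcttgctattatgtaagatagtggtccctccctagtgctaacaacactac

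Fetal and imprinted growth genes fell in part. Of 21 measured members 4 were lower, against 5.23% of all genes, and the other 17 were not called, with a median of -0.48. Mest, an imprinted gene expressed from the paternal copy, was 8.66, 9.07, 9.72, 10.24 and 8.25 at 4 weeks and 5.11, 5.74, 5.16, 5.54 and 5.68 at 8 weeks, a fall of 3.74 (adjusted p = 9.06e-09). The growth restraint genes Gpc3 and Grb10 fell by at least 2.48 and by 2.54, and Igf2bp3, which encodes an RNA-binding protein of fetal tissue, by 2.21. The fetal albumin gene Afp was 6.55 ± 0.18 at 4 weeks and 6.42 ± 0.24 at 8 weeks (adjusted p = 0.873), Igf2 was 7.01 ± 1.13 and 6.53 ± 0.26, and Dlk1 was not above background at either age. Of these 3 none was called with all arrays, and the 4-week high of Igf2, 8.91, was in replicate 4. The paternally silenced gene H19 was not analysed here.

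Mir675, the miRNA gene inside the H19 transcript, was singled out after its values were seen. Its feature was 13.86, 7.88, 9.75, 15.63 and 6.97 in 4-week replicates 1 to 5 and 5.18, 4.88, 5.22, 4.95 and 5.53 at 8 weeks, a fall of at least 5.62 (adjusted p = 0.00401). Replicates 1 and 4 were far above replicates 2, 3 and 5 at 4 weeks, and the 8-week arrays were all close to background. The feature does not tell the 2 mature arms, or the host transcript, apart. The arms are shown with their seeds, bases 2 to 8, in capitals, as RefSeq gives them at chr7:142577112-142577133 and chr7:142577078-142577099 (minus strand, GRCm38.p6).
miR-675-5p: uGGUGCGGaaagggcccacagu
miR-675-3p: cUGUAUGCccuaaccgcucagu

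Extracellular matrix genes fell in part. Of 37 measured genes 18 were lower, against 5.23% of all genes, and the other 19 were not called (median -0.84). The count was 12 without 4-week replicate 4 (median -0.62) and 13 without 8-week replicate 3. Sparc, which encodes a collagen-binding matrix protein, was 15.19, 14.74, 15.16, 15.95 and 14.92 at 4 weeks and 9.84, 11.52, 10.58, 11.59 and 12.13 at 8 weeks. It fell by 4.06 (adjusted p = 9.11e-07), the difference was -3.87 without replicate 4, and the ages did not overlap. The fibrillar collagen gene Col3a1 fell by 3.38, from 11.58, 10.53, 11.25, 12.90 and 10.74 at 4 weeks to 7.10 to 8.97, and the difference was -3.01 without replicate 4. The matricellular gene Postn fell by 2.99, and the basement membrane genes Nid1 and Lamc1 by 2.39 and 2.32. Col1a1 was 7.63 ± 0.71 and 6.65 ± 0.24 and was not called (adjusted p = 0.0961). Replicate 4 was the highest 4-week array for Sparc, Col3a1, Postn, Nid1 and Lamc1, and the part of its muscle and gut transcripts in these levels was not tested.

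Markers of liver endothelium also fell in part. Of 19 measured markers 9 were lower, against 5.23% of all genes, and the other 10 were not called (median -0.77). Without 4-week replicate 4 the count was 7. The mean of the 19 markers was 8.77 to 9.28 in the 4-week arrays and 7.58 to 8.66 in the 8-week arrays. The hyaluronan receptor gene Lyve1 was 9.28, 9.46, 10.17, 10.52 and 8.63 at 4 weeks and 7.50, 6.60, 7.11, 7.49 and 6.99 at 8 weeks (difference -2.47, adjusted p = 5.1e-05). Cdh5, the gene of the endothelial cadherin, fell by 1.42, with 4-week replicate 4 the highest array for both, and Stab2, a scavenger receptor gene, by 0.92 from a narrow 4-week range of 8.04 to 8.53. Clec4g, a lectin gene of sinusoidal endothelium, was 10.86 ± 0.45 and 10.09 ± 0.51 and was not called (adjusted p = 0.0768), except without 4-week replicate 1 (adjusted p = 0.0432). In whole liver RNA, fewer cells of a type and less RNA per cell cannot be told apart.

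Of 14 hepatic stellate cell markers 3 were lower, with and without 4-week replicate 4: the lectin gene Colec11 (-1.04), the proteoglycan gene Dcn (-0.84) and Pdgfrb (-0.95), which encodes a platelet-derived growth factor receptor. The vitamin A storage gene Lrat was 10.02 ± 0.72 and 9.11 ± 0.54 and was not called. Of 19 Kupffer cell markers 5 were lower, 3 without 4-week replicate 4, and 1 higher. Beside these counts and those of the stellate markers, 5.23% of all genes were lower and 3.71% higher. The lectin gene Clec4f, which is confined to Kupffer cells, was 9.29, 9.68, 10.19, 10.06 and 9.89 at 4 weeks and 8.22, 8.53, 8.76, 8.70 and 7.89 at 8 weeks (difference -1.40, adjusted p = 0.000488). The complement gene C1qb fell by 1.51 and the complement receptor gene Vsig4 by 0.94 (adjusted p = 0.0371), while Timd4 was not called (adjusted p = 0.401). The call of Vsig4 was lost without any 1 of 4-week replicates 2, 3 and 4 or 8-week replicates 1, 2, 3 and 5 (adjusted p 0.0509 to 0.108). The higher marker was C6, which is also male-biased in hepatocytes.

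Of 17 monocyte and macrophage markers 2 were lower and 1 higher, where 5.23% of all genes were lower and 3.71% higher. The same shares stand beside the marker counts below, and a call of 1 marker describes that gene only. Cd63, a lysosomal tetraspanin gene expressed in many cells, fell from 9.44 ± 0.57 to 6.79 ± 0.49. Of 15 neutrophil markers 2 were higher and 1 lower, with Wfdc21 higher by 2.82 while 12 of the 15 were not above background at 8 weeks. The limma fit called none of 12 B and plasma cell markers, of which 1 had an unadjusted p below 0.05. Of these 12 markers 11 were not above background at 4 weeks and 12 at 8 weeks, so the lack of calls cannot show equal levels. Of 19 T and NK cell markers it called Cd4 higher (0.80), while 17 of the 19 were not above background at 8 weeks. The erythroid heme synthesis gene Alas2 rose from 9.17 ± 0.69 to 11.66 ± 0.31 (difference 2.49), the single erythroid marker called of 12. Among 18 cholangiocyte markers Prom1, also on the female-biased list, fell by 3.20 and the transcription factor gene Onecut2 rose by 1.0, while Krt19 and Epcam were not called. The fatty acid binding protein gene Fabp4, an adipocyte and endothelial gene, fell from 10.69, 9.37, 10.19, 12.28 and 9.09 to 7.42 to 7.97 (difference -2.61, -2.12 without 4-week replicate 4). Of 9 mesothelial markers 1 was lower, and it lost its call without 4-week replicate 4 or 8-week replicate 1. The limma fit called none of 30 muscle, 12 pancreatic acinar and 12 intestinal markers, and 0, 0 and 1 of them had an unadjusted p below 0.05. Of the pancreatic and intestinal markers 10 and 9 were not above background at 8 weeks. All 30 muscle differences were negative, with a median of -1.65, and -0.14 without 4-week replicate 4. Arrays with muscle transcripts widen the spread of these genes, so the lack of calls there cannot show that muscle signal was equal at the 2 ages.

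Genes of cholesterol synthesis fell. Of 19 measured members 12 were lower, against 5.23% of all genes, and the other 7 were not called (median -1.04). The count was 10 without 4-week replicate 4 and 8 without 4-week replicate 1. Hmgcs1, which makes HMG-CoA at the head of the pathway, was 17.84, 17.44, 17.66, 17.31 and 17.23 at 4 weeks and 14.65, 16.19, 15.45, 15.98 and 16.15 at 8 weeks. It fell by 1.81 (adjusted p = 0.000203), and 8-week replicate 1 was the lowest array. Idi1, the isomerase of isoprene units, fell by 1.66, Fdft1, the squalene synthase gene, by 1.28 and Cyp51, the lanosterol demethylase gene, by 1.11. Sqle, which encodes squalene epoxidase, fell by 1.31 (adjusted p = 0.0134), and its ages overlapped through 8-week replicate 1 (11.84 against 9.89 to 10.78 in the other 8-week arrays).

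Fatty acid synthesis genes fell in part. Of 19 measured members 8 were lower, against 5.23% of all genes, and the other 11 were not called (median -0.80). The count of lower members was 4 without 4-week replicate 2, 4-week replicate 3 or 8-week replicate 3. It was 5 without 4-week replicate 1, 8-week replicate 1 or 8-week replicate 5. Acaca, the acetyl-CoA carboxylase gene that commits carbon to fatty acids, was 11.47, 12.48, 12.23, 11.14 and 11.88 at 4 weeks and 10.30, 10.29, 9.24, 10.50 and 9.72 at 8 weeks (difference -1.83, adjusted p = 7.77e-05). The desaturase genes Fads2 and Fads1 fell by 1.11 and 0.80 and the elongase gene Elovl5 by 1.04. Fasn, the fatty acid synthase gene, was 13.30 ± 0.47 and 11.74 ± 0.90, and its call (difference -1.56, adjusted p = 0.0226) was lost without any 1 of 4-week replicates 1, 2 and 3 or 8-week replicates 1 and 3 (adjusted p 0.0508 to 0.0748). Scd1, the oleate-forming desaturase gene, was 18.74 ± 0.15 and 18.47 ± 0.36 and was not called (adjusted p = 0.389).

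Of 25 genes of fatty acid oxidation and ketone formation 7 were lower, against 5.23% of all genes, and the median was -0.17. The count was the same without 4-week replicate 4. The largest falls were those of Cyp4a14 and Cyp4a10, given above, and of the thioesterase gene Acot3 (-2.72), which with Cyp4a10 is also on the female-biased list. Acadl, a mitochondrial dehydrogenase gene of long-chain oxidation, fell from 14.57 ± 0.18 to 13.86 ± 0.22 (-0.72, adjusted p = 0.00126). Cpt1a, which controls entry of fatty acids into mitochondria, was 13.19 ± 0.26 and 13 ± 0.67 (adjusted p = 0.787), and the fasting hormone gene Fgf21 was not above background at either age.

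Bile acid genes rose in part. Of 29 measured genes of bile acid synthesis and transport 7 were higher, 5 without 4-week replicate 4, and 1 lower, with a median of 0.19. Over all genes 3.71% were higher and 5.23% lower. Apart from Cyp7b1 and Slco1a1, the sterol carrier gene Scp2 rose by 1.16 and Baat, which conjugates bile acids to amino acids, by 1.04, from 13.25, 13.44, 13.21, 12.84 and 13.32 at 4 weeks to 14.22, 14.12, 14.12, 14.25 and 14.54 at 8 weeks. The anion transporter gene Slco1a4, which is female-biased in mouse liver, fell by 2.13. Cyp7a1, the gene of the rate-limiting enzyme of bile acid synthesis, was 15.40, 13.70, 14.34, 15.12 and 15.08 at 4 weeks and 17.23, 14.76, 14.22, 14.87 and 15.64 at 8 weeks, with the highest value in 8-week replicate 1, and was not called. Cyp8b1, which makes cholic acid, was 11.51 ± 0.58 and 12.40 ± 0.40 (adjusted p = 0.138), and the uptake transporter gene Slc10a1 was 17.67 ± 0.38 and 17.06 ± 0.38 (adjusted p = 0.119).

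Of 24 xenobiotic P450 genes 3 were higher, 1 without 4-week replicate 4, and 4 lower, with a median of -0.16. Over all genes 3.71% were higher, 2.42% without 4-week replicate 4, and 5.23% lower. Cyp3a16, a P450 of the young and female liver, fell by 3.41, from 11.88, 10.66, 11.79, 11.07 and 7.89 at 4 weeks to 6.79 to 7.51, and 4-week replicate 5 was already close to the 8-week range. Cyp2c55 fell by 3.26 and Cyp3a41a by 3.18, and Cyp2d22 rose by 0.94. The major hepatic P450 genes Cyp2e1 (18.34 ± 0.27 and 18.65 ± 0.19), Cyp3a11 (19.01 ± 0.16 and 18.86 ± 0.23) and Cyp1a2 (16.32 ± 0.72 and 16.80 ± 0.09) were not called. Of 30 conjugation enzyme genes 10 were higher and 6 lower, 9 and 5 without 4-week replicate 4. The glycosyltransferase gene Ugt3a1 rose most among them, from 10.12, 12.21, 11.19, 10.70 and 11.67 at 4 weeks to 14.54, 15.06, 14.90, 14.86 and 15.14 at 8 weeks (difference 3.72, adjusted p = 1.6e-07), and the phenol sulfotransferase gene Sult1a1 fell by 1.68.

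Genes of hepatocyte identity and plasma proteins were mostly not called. Of 36 measured members 1 was higher and 2 lower, shares near or below the 3.71% and 5.23% of all genes, and the median was -0.08. Albumin (Alb) was 19.83 ± 0.01 and 19.75 ± 0.04 (difference -0.08) and transthyretin (Ttr) 19.36 ± 0.04 and 19.24 ± 0.09, both near the top of the deposited scale, where differences may be compressed. C9, of the terminal complement complex, rose from 14.44, 13.39, 13.14, 13.71 and 14.54 at 4 weeks to 16.90, 16.92, 16.84, 16.38 and 16.37 at 8 weeks (difference 2.84, adjusted p = 9.82e-08). The fetuin gene Ahsg fell by 0.39, and Itih2, the gene of a hyaluronan-binding chain, by 0.56 (adjusted p = 0.0441), a call lost without any 1 array other than 4-week replicate 5 (adjusted p 0.0603 to 0.109).

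Of 31 hepatocyte transcription factor genes 7 were higher, 5 without 4-week replicate 4, and 1 lower, with a median of 0.22. Over all genes 3.71% were higher and 5.23% lower. Cebpa, a regulator of hepatocyte metabolism that restrains division, was 10.92, 10.96, 10.67, 10.68 and 11.82 at 4 weeks and 12.35, 12.15, 12.26, 11.92 and 12.34 at 8 weeks (difference 1.19, adjusted p = 0.000922), with 4-week replicate 5 the nearest to the 8-week group. The thyroid hormone receptor gene Thrb rose by 0.78. Hnf4a, the master regulator gene of the hepatocyte, was 13.73 ± 0.26 and 13.81 ± 0.53 (adjusted p = 0.893). The immediate early gene Egr1 fell by 4.23, from 13.05, 11.22, 12.18, 12.31 and 12.94 to 6.55, 8.27, 8.32, 8.14 and 9.25.

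Of 27 zonation genes 4 were higher and 3 lower, and both counts were 2 without 4-week replicate 4. Pigr, the polymeric immunoglobulin receptor gene of the periportal zone, rose from 13.94, 14.68, 13.63, 14.22 and 14.74 at 4 weeks to 16.66, 16.78, 16.88, 16.79 and 16.87 at 8 weeks (difference 2.55), and the hepatokine gene Lect2 and the steroid dehydrogenase gene Hsd17b6 fell by 0.96 and 1.29. Of 33 genes that break down amino acids or make urea 1 was higher, against 3.71% of all genes, namely Gpt2 (0.86, adjusted p = 0.0416, 0.118 without 4-week replicate 4). The genes Mat1a (-0.68) and Bckdhb (-0.55) were lower, 2 of 33 against 5.23% of all genes, so both shares were near those of all genes, as were those of the gluconeogenesis and iron genes. The call of the transaminase gene Gpt2 was also lost without 4-week replicate 1 or 2 or 8-week replicate 1, 2 or 4 (adjusted p up to 0.122), and that of Mat1a, which makes the methyl donor of the cell, without 8-week replicate 2 (adjusted p = 0.0575). The urea cycle gene Cps1 was 18.17 ± 0.13 and 17.94 ± 0.08 and was not called. Of 23 genes of gluconeogenesis, glycogen and glycolysis 1 was lower, the coactivator gene Ppargc1a, with 11.88, 11.75, 11.71, 12.19 and 10.78 at 4 weeks and 9.01, 8.46, 9.61, 9.23 and 8.87 at 8 weeks (difference -2.63, adjusted p = 7e-05). The glucose-releasing genes G6pc (1.17, adjusted p = 0.0989) and Pck1 (-0.16, adjusted p = 0.819) were not called, except G6pc without 4-week replicate 2 (adjusted p = 0.0258) or 3 (adjusted p = 0.0396). Of 21 iron genes Hamp, the gene of hepcidin, which blocks iron export, rose from 16.14, 16.50, 17.02, 17.14 and 16.78 to 18.18, 17.85, 18.21, 18.22 and 18.16 (difference 1.41, adjusted p = 0.000989), and Id1, a target of the same BMP pathway, fell by 2.47.

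The calls of acute phase and metallothionein genes depended on 8-week replicate 1. Of 24 measured members 4 were higher and 4 lower, and without that array 1 was higher and 5 lower. Over all genes 3.71% were higher and 5.23% lower, and 3.53% and 4.72% without that array. Mt1 was 18.67, 17.04, 16.34, 18.50 and 17.30 at 4 weeks and 17.48, 9.99, 11.45, 13.38 and 12.06 at 8 weeks, so replicate 1 alone overlapped the 4-week range. Mt1 fell by 4.70 with that array, and the difference was -5.85 without it. Mt2, with 4-week values of 18.92, 17.32, 16.25, 18.75 and 17.07, fell by 7.32 (adjusted p = 0.00146) with the array, and the difference was -9.15 (adjusted p = 1.21e-06) without it. Lcn2, an acute phase and neutrophil gene, was 15.12, 11.57, 9.80, 9.83 and 9.65 at 4 weeks and 15.72, 8.56, 8.59, 9.02 and 7.14 at 8 weeks, was not called with all arrays, and had a difference of -2.87 (adjusted p = 0.0469) without 8-week replicate 1. Saa1 was 11.93, 6.94, 6.92, 6.81 and 7.10 and 14.25, 11.11, 11.49, 8.85 and 8.11, highest in replicate 1 of each age, and was not called (difference 2.82, adjusted p = 0.0801), but was called without 4-week replicate 1 (adjusted p = 0.00588) or 8-week replicate 5 (adjusted p = 0.0312). The serum amyloid P gene Apcs fell by 2.70 and the interleukin antagonist gene Il1rn by 2.98, and the feature of Orm3 rose by at least 1.05.

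Clock genes showed the same array. Of 23 members 1 was higher and 1 lower, a share near that of all genes, and the median was 0.46 (0.26 without 8-week replicate 1). Dbp had 4-week values of 7.89, 7.77, 8.68, 9.12 and 10.79 and a difference of 0.57 with all arrays and -0.87 without 8-week replicate 1, and neither was called. Arntl, which peaks in antiphase to Dbp, had 4-week values of 10.63, 10.14, 10.31, 10.29 and 9.06, and its difference was -0.36 with and 0.54 without that array. Within the 4-week group replicate 5 had the highest Dbp and the lowest Arntl. The time of collection is not in the labels. Hlf, a relative of Dbp, rose by 1.07 (adjusted p = 0.0097), and the cell cycle inhibitor gene Cdkn1a fell from 12.07 ± 0.82 to 8.56 ± 2.34, with 8-week values of 5.31, 8.05, 10.37, 11.25 and 7.84 that overlapped the 4-week range.

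Of 27 interferon-stimulated genes 5 were lower, 4 without 4-week replicate 4, where 5.23% of all genes were lower and 3.71% higher, and the median was -0.30. The deconjugating protease gene Usp18 was 9.78, 9.26, 9.42, 8.33 and 9.22 at 4 weeks and 8.59, 6.68, 6.92, 6.82 and 6.30 at 8 weeks, with 8-week replicate 1 inside the 4-week range (difference -2.14, adjusted p = 0.000181). Xaf1 and the RNA sensor gene Ifih1 fell by 1.75 and 0.69, while Ifit1 was 6.90 ± 0.37 and 6.72 ± 0.83 and was not called. Of 26 antigen presentation and guanylate-binding protein genes 1 was lower, Gbp7 (-1.82, adjusted p = 0.0252), whose 4-week value was 12.97 in replicate 1 and at most 9.62 in the others, and whose call was lost without 8-week replicate 1 or 3. Of 23 endoplasmic reticulum and ATF4 genes the chaperone gene Dnajb9 rose by 1.52 and Asns, which makes asparagine, fell by 1.01, with 1 higher and 2 lower in all. Of 19 NRF2 targets 2 were higher, including the epoxide hydrolase gene Ephx1 (0.79), and 3 lower, including the quinone reductase gene Nqo1 (-1.35).

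None of 13 genes of O-GlcNAc cycling and the hexosamine pathway was called by the limma fit in wild-type liver, and 5 had an unadjusted p below 0.05. Without 8-week replicate 1 the fit called 1 of them higher. Ogt itself was 9.37, 9.87, 9.83, 9.65 and 9.14 at 4 weeks and 9.84, 10.12, 9.92, 10.33 and 10.19 at 8 weeks (difference 0.51, adjusted p = 0.136), and Oga, which encodes the opposing hydrolase, was 11.47 ± 0.20 and 11.27 ± 0.36 (adjusted p = 0.671). Of 32 genes of mitochondrial respiratory chain subunits 5 were lower, 2 without 4-week replicate 4, where 5.23% of all genes were lower, 4.21% without it. Cox7b, of cytochrome oxidase, fell by 0.89 (-0.77 without replicate 4) and Sdhd, of succinate dehydrogenase, by 0.54. Cytosolic ribosomal protein genes, a family chosen after its values were seen, had 15 of 63 members lower, 9 without replicate 4, and a median of -0.41.

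**Figure D4:**
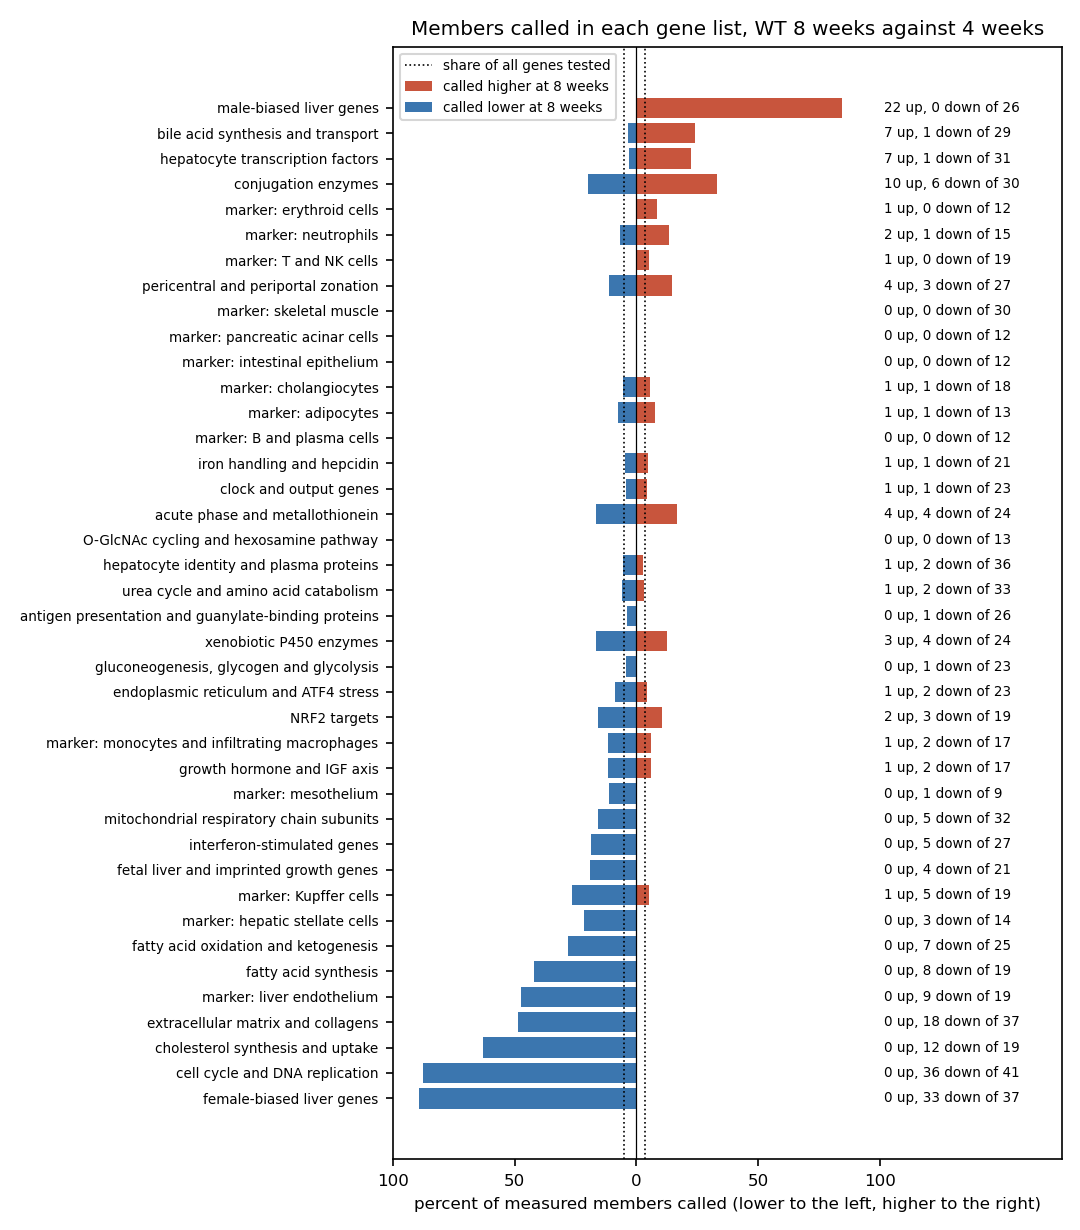
Percent of the measured members of 40 gene lists called higher (red, to the right) or lower (blue, to the left) at 8 weeks, with the counts at the right. Dotted lines mark the 3.71% of all genes called higher and the 5.23% called lower. The male-biased list reaches 22 of 26 higher, and the female-biased list 33 of 37 and the cell cycle list 36 of 41 lower.

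Some of the largest changes lay outside the lists. Nox4, which encodes an oxidase that makes hydrogen peroxide, was 4.72, 4.52, 5.04, 4.73 and 5.12 at 4 weeks and 10.61, 11.10, 11.19, 11.25 and 11.38 at 8 weeks. It rose by at least 6.10 (adjusted p = 1.83e-13). Tiam2, a guanine nucleotide exchange factor gene, rose by 3.99 and the acetyltransferase gene Nat8f5 by at least 3.83. The transcription factor gene Tcf24 was 11.01, 10.31, 10.61, 10.57 and 10.42 at 4 weeks and 4.74, 4.29, 4.04, 4.75 and 4.75 at 8 weeks, at least 5.38 lower (adjusted p = 3.73e-14). Akr1c18, which inactivates progesterone, fell by at least 8.25, from 13.45 ± 1.0. Rgs16, a regulator of G protein signalling in hepatocytes, was 13.49, 14.52, 14.05, 12.51 and 10.76 at 4 weeks and 8.31, 6.08, 5.61, 8.36 and 4.64 at 8 weeks, and fell by 6.47 (adjusted p = 3.93e-05) with a wide spread at both ages.

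The change with age was set against that in the arrays labelled KO, as the change in wild type minus the change in KO. In the latter arrays Ogt was 8.14 ± 0.53 at 4 weeks and 9.81 ± 0.21 at 8 weeks, the second close to the 10.08 ± 0.20 of wild type. Whether the feature lies in the deleted part of the gene is not known, so it does not check the label at 8 weeks, and KO stands for the label here. Of 19505 genes 595 (3.05%) had a called difference, 196 (1%) with the change more positive in wild type and 399 (2.05%) with it more negative. Among these were 18 of the 37 female-biased genes, 11 of the 27 interferon-stimulated genes, 10 of the 37 matrix genes and 7 of the 26 male-biased genes, and 1 of the 41 cell cycle genes. Of 18 cholangiocyte markers 6 were called as well, with the keratin gene Krt19 at 5.08 ± 0.71 in wild type and 7.04 ± 1.05 in KO at 8 weeks, and the part of these cells in the other differences was not tested. The Y chromosome genes were given above for the wild-type arrays only. The sex of the mice behind the KO arrays was not shown, and its part in the differences of sex-biased genes was not tested. The comparison without the 3 arrays that held muscle transcripts, 1 wild type and 2 KO at 4 weeks, called 517.

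Elovl3 rose by 11.30 in wild type and 4.45 in KO (difference 6.85, limma adjusted p = 0.00193), with a 4-week KO level of 10.85 ± 1.55 against 5.47 ± 1.90. The change of Mup20 was 0.91 in KO (difference 4.19, adjusted p = 0.00159), from a 4-week level of 18.28 ± 0.84, near the top of the scale, where differences may be compressed. For Susd4 and Selenbp2 the change was 0.92 and 0.12 in KO, and the differences were 3.86 (adjusted p = 6.72e-05) and 3.68 (adjusted p = 5.41e-05), with 8-week KO levels below those of wild type, 6.88 ± 0.75 and 12.83 ± 0.50. Hsd3b5 rose by 6.24 in KO, and the difference of 0.04 was not called.

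For Slc22a26 the change was -1.33 in KO, from 10.58 ± 0.98 to 9.24 ± 1.46, where wild type went from 14.14 ± 0.63 to 6.30 ± 0.29 (difference -6.51, adjusted p = 6.72e-05). Tcf24 fell in both, and its 8-week wild-type mean was not above background. Pdgfrb rose by 1.87 in KO and fell by 0.95 in wild type (difference -2.82, adjusted p = 5.41e-05). Gldn, a matrix protein gene of peripheral nerve, was not above background in wild type at either age and was 6.83 ± 0.41 in KO at 8 weeks (difference -3.07, adjusted p = 1.95e-07). For Mki67 (-1.49), Pcna (0.02), Nox4 (0.96) and Rgs16 (-0.08) the differences were not called, with adjusted p of 0.262, 0.982, 0.142 and 0.985, and Nox4 was not above background at 4 weeks in either genotype.

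**Figure D5:**
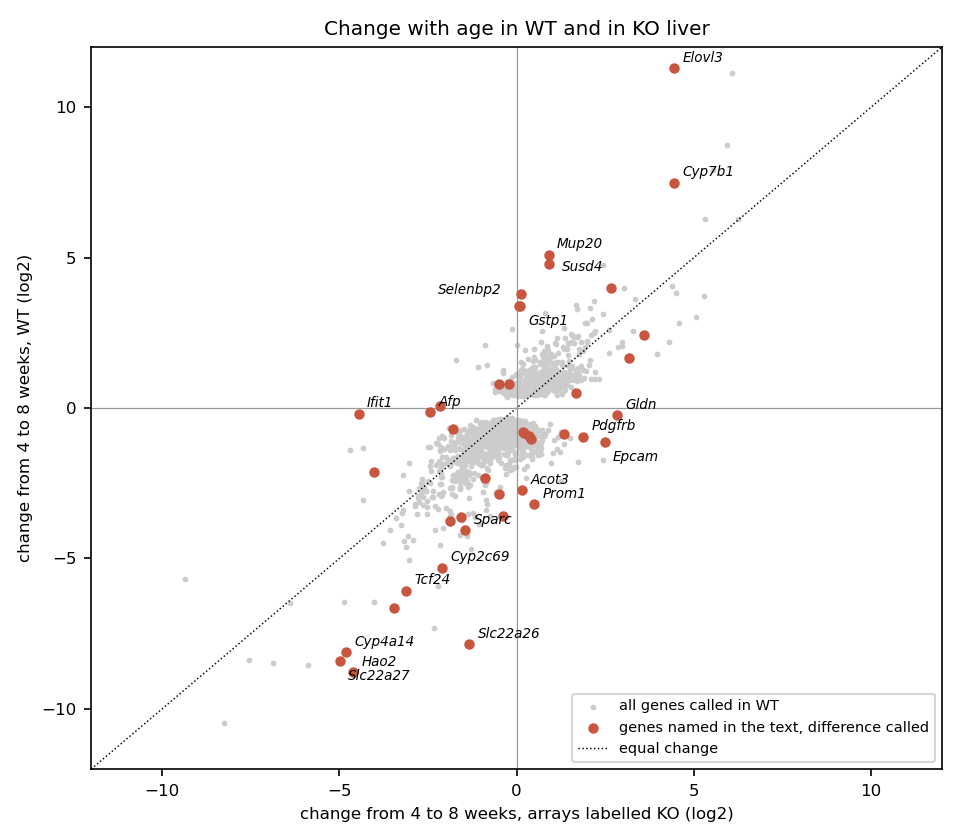
Change in log2 signal from 4 to 8 weeks in wild type (vertical) and in the arrays labelled KO (horizontal). Grey points are the 1744 genes called in wild type, red points are the genes named in the text whose change differed between the genotypes, and the dotted line marks equal change. Elovl3 changed by 11.30 in wild type and 4.45 in KO, and Slc22a26 by -7.84 and -1.33.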

How the data were processed

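Total RNA of powdered frozen liver was hybridised to Clariom S Mouse arrays, per the labels' protocols. The values are the log2 signals deposited by the authors, made with Affymetrix Expression Console and RMA per the submitters' processing notes, and tool versions and genome build are not given in the sources used here. They ran from 2.32 to 19.85, with 254 to 288 features per array above 16, where differences may be compressed, and array medians from 5.42 to 5.58. No further normalization was applied. Of 22206 features 19572 carried 1 gene symbol and 2634 none. For 55 symbols with several features the brightest on average stood for the gene, so 67 features were dropped and 19505 genes tested. Near-identical paralogs may share signal.

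The 4 group means of all 20 arrays were fitted in R 4.3.3 by limma 3.58.1 (16 residual degrees of freedom, empirical Bayes), after the scripts were tested on simulated data. Benjamini-Hochberg adjusted p-values below 0.05 over all genes were called. The number of arrays limits the precision. No 2 arrays agreed in all values (at least 21908 features differed between any 2). Nothing in the labels says whether littermates or batches were kept apart. The p-values rest on the spread between mice within the 4 groups, pooled over all 20 arrays, KO included. The numbers in the titles run from 21 to 25 for wild type at 4 weeks and from 26 to 30 at 8 weeks. An effect of that order could therefore not be told apart from age.

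The comparison, its members and the gene lists were chosen with earlier results of these data known, and list members are not independent evidence. The naming rule took the 12 largest rises and falls called with and without 4-week replicate 4, without overlap and above background (predicted genes and muscle markers passed over), up to 4 called members of each list by adjusted p, preset genes of each list, and the 5 strongest differences from the arrays labelled KO. Genes named from outside the rule were chosen after their values were seen: Slco1a1, Gstp3, Cdk1, Mcm10, Mir675, Muc2, Bcl6, Slc22a28, Slc22a30, Cyp4a31, and the families. Of 940 symbols written in the 40 lists 848 were measured.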

Additional observations from a re-analysis of the deposited data

Results flagged for a closer look

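In 27 of 338 groups of 5 wild-type arrays tested for the genes named, 1 array lay far from the other 4 relative to the range of the group, and chance alone marks about 1 group in 20. Replicate 1 at 8 weeks accounted for 10 of them. In that array Dbp was 15.19, Arntl 6.11, Mt2 17.65, Lcn2 15.72, Usp18 8.59, Ghr 16.44, Fads2 16.72, Ttr 19.08, Stab2 6.64 and Slc22a26 6.80. In 4-week replicate 4 Acta1 was 15.89, Ckm, the muscle creatine kinase gene, 12.91, Cyp7b1 8.13, Cux2 6.78 and Dcn 16.43. In 4-week replicate 1 Saa1 was 11.93, Gbp7 12.97 and Idi1 16.08. Cyp2b9 was 4.40 in 4-week replicate 2, Hsd17b6 13.92 in replicate 3, and Gstp3 9.64 and Cebpa 11.82 in replicate 5. At 8 weeks Hamp was 17.85 in replicate 2, Mcm10 13.24, Krt19 3.84 and Cd4 7.79 in replicate 3, and Vsig4 8.68 in replicate 5.

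For 41 of the 169 genes named in the text the change with age differed between wild type and the arrays labelled KO (limma adjusted p below 0.05 for the difference between the changes). Over all genes 3.05% had such a difference. Genes were named partly for this difference and for large changes in wild type, so the 41 are no measure of how common it is. The change was more positive in wild type for the male-biased genes Elovl3 (6.85), Mup20 (4.19), Susd4 (3.86), Selenbp2 (3.68), Gstp1 (3.31) and Cyp7b1 (3.05), for Gstp2 (3.33) and for Tiam2 (1.33). It was also more positive for the interferon genes Ifit1 (4.26), Usp18 (1.87) and Ifih1 (1.10), and for Afp (2.31), Fgf21 (2.20), Ephx1 (1.28) and Cd4 (1.01). A more positive change need not be a rise in wild type, where Usp18 and Ifih1 fell. Afp and Fgf21 changed by -0.13 and 0.05 in wild type and by -2.44 and -2.15 in KO. Among female-biased and lipid genes it was more negative for Slc22a26 (-6.51), Hao2 (-4.18), Slc22a27 (-3.42), Cyp4a14 (-3.30), Sult3a1 (-3.21), Cyp2c69 (-3.19), Cyp2c40 (-3.17), Acot3 (-2.87) and Fads1 (-0.99). Among matrix, stellate, endothelial and cholangiocyte genes it was more negative for Prom1 (-3.69), Epcam (-3.62), Gldn (-3.07), Pdgfrb (-2.82), Sparc (-2.61), Igfbp3 (-2.36), Krt19 (-2.21), Colec11 (-1.44), Lamc1 (-1.43), Stab2 (-1.26) and Dcn (-1.04). The remaining ones were Tcf24 (-2.94), Stmn1 (-2.08), Mest (-1.86), Slc22a30 (-1.52), Slc22a28 (-1.17) and Ogt (-1.16). For Hao2, Slc22a27, Tcf24, Tiam2, Sult3a1, Fgf21, Krt19, Epcam and Gldn at least 1 group mean was not above background, so these measured differences are not exact sizes.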

How the results depend on the processing

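At a stricter threshold, adjusted p below 0.01, 324 genes were higher, 602 lower and 140 differed from the arrays labelled KO, with 5 cholesterol, 4 fatty acid synthesis and 10 matrix genes lower. Leaving out 1 wild-type array gave 472 to 733 higher and 821 to 986 lower genes (the lowest of each without 4-week replicate 4), 426 to 585 differences from KO, and 34 to 36 cell cycle, 21 to 23 male-biased, 33 to 33 female-biased, 8 to 12 cholesterol, 4 to 9 fatty acid synthesis, 12 to 18 matrix and 7 to 9 endothelial calls. Array weights, other scalings, low-signal filters, a fit of the 10 wild-type arrays alone, a trended robust prior and feature means gave 681 to 919 higher and 938 to 1194 lower genes. Setting the array medians equal moved the median difference from 0.04 to 0.074. The replicate block gave 654 higher, 972 lower and 488 differences from KO, but the numbers do not pair the mice: same-numbered arrays correlated at -0.04 to 0.05 in their deviations, and 1 of 5 4-week arrays correlated best with its own number. All 129 called genes named kept their direction in the 21 alternatives, 119 kept their call apart from the stricter threshold, and 10 lost it in at least 1. Of the uncalled genes named 9 were called in at least 1 alternative, among them Slc10a1 (adjusted p = 0.0272) and Ttr (0.0496) after repeated quantile normalization and Col1a1 (0.0485) in the wild-type arrays alone. Signals not above background limit the dimmest falls to lower bounds.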
